A study of Sus scrofa with 4 samples.

Results

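Aromatase (CYP19) and HSD17B1 are the enzymes that form oestradiol in the ovarian follicle, and the pig genome carries 3 aromatase genes. The 4 genes CYP19A1, CYP19A2, CYP19A3 and HSD17B1 were taken by symbol from the deposited count table, which has 29884 genes. They were followed in RNA sequencing libraries of porcine granulosa cells, which line the antral follicle and nurse the oocyte. There were 2 libraries from cells with a high share in G0/G1, the part of the cell cycle before DNA synthesis, and 2 libraries from cells with a low share. Per the labels, the share had been read by flow cytometry on part of the cells, all libraries are total RNA of ovarian granulosa cells, and no treatment is named for either group. Breed, age, cycle stage and the number of follicles or animals behind a library are not stated in the labels. The p-values therefore reflect the variation among these 4 samples only, and it may be technical.

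As background, granulosa cells do not make androgen in amount. Theca cells outside the basement membrane supply it, and granulosa aromatase, a cytochrome P450 that takes electrons from the reductase POR, turns androgens into oestrogens. HSD17B1 then reduces oestrone to oestradiol, the more active oestrogen. Follicle-stimulating hormone, acting through cyclic AMP, and the nuclear receptors NR5A1 and NR5A2 are known to drive aromatase transcription. The porcine aromatase paralogs are known for use in different tissues, among them ovary, placenta and early embryo.

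The libraries held between 27442850 and 32674921 counted reads, and 14352 genes passed the filter on low counts. Levels are given as CPM, read counts relative to the library total after scaling between libraries (TMM). They are not divided by transcript length, so levels of different genes are not compared. The granulosa label was checked against 12 markers of this cell type. All 12 were counted in each library, with summed levels of 29599 and 17547 CPM in high G0/G1 cells against 20382 and 17355 CPM in low G0/G1 cells. INHA and SERPINE2 made up most of each sum, with 10576 and 15726 CPM in high replicate 1. The sums therefore say little of the other markers. Of the 12 markers 4 had a log2 fold change above 0 and 8 below, with a median of -0.69. IHH stood at 12.3 and 2.7 CPM in high G0/G1 cells against 437 and 369 CPM in low G0/G1 cells. The edgeR quasi-likelihood test called 0 (0% of all genes tested). DESeq2 called AMHR2 higher, against 5.36% of all genes, and FSHR, IHH and INHBB lower, against 5.03% of all genes. Markers of other cells were not even. CYP17A1, the androgen-forming enzyme of theca cells, stood at 0.772 and 1.02 CPM in high G0/G1 cells against 0.125 and 51.5 CPM in low G0/G1 cells. The summed level of 6 stromal and smooth muscle markers was 88.5 and 116 CPM in high G0/G1 cells against 43.7 and 1103 CPM in low G0/G1 cells. The theca pair CYP17A1 and INSL3 together had 18.3 and 31.0 CPM in high G0/G1 cells against 75.5 and 312 CPM in low G0/G1 cells. Low replicate 2 thus had the highest sums of theca and stroma markers. Of the stroma markers, PDGFRA and MYH11 were instead highest in high replicate 2. They stood there at 18.6 and 5.37 CPM, against 6.17 and 3.68 CPM in low replicate 2. Sums over 5 endothelial markers were 12.9 and 40.4 CPM in high against 6.74 and 49.1 CPM in low. Of these markers KDR was highest in high replicate 2, at 29.5 CPM against 10.5 CPM in low replicate 2. All others were highest in low replicate 2, such as VWF at 22.0 CPM against 4.32 CPM in high replicate 2. Sums over 4 leukocyte markers stayed between 0.596 and 2.63 CPM. Among 6 oocyte markers ZP2 had 0 counts in each library, and GDF9 made up most of the sum, which ran from 6.43 to 11.5 CPM. In the lists of other cell types edgeR called 0 members and DESeq2 called 1, INSL3, lower.

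Nearly all aromatase reads were counted for 1 paralog, CYP19A3. The 3 paralogs lie together on chromosome 1 of Sscrofa11.1, CYP19A3 at 120476890 to 120556103, CYP19A1 at 120596235 to 120627806 and CYP19A2 at 120652172 to 120695899, and no other annotated RefSeq gene overlaps them. CYP19A3 had 118837 and 44131 reads in high G0/G1 cells against 46047 and 32939 reads in low G0/G1 cells. That was 99.94% and 99.93% of the aromatase reads in high G0/G1 cells against 99.93% and 99.86% in low G0/G1 cells, so the share was alike in all 4. CYP19A1 had 0 reads in each library. With 3 counts taken as the limit behind a 0, the limit on its level was 0.0941 to 0.105 CPM across the libraries. The upper ends of exact 95% counting intervals were 0.116 to 0.129 CPM. How reads that match several paralogs were counted is not given in the sources used here. The split between paralogs, and the 0 of CYP19A1, therefore hold for reads as the authors assigned them.

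CYP19A2 had few reads, 75 and 30 in high G0/G1 cells against 34 and 45 in low G0/G1 cells. These were 2.52 and 1.05 CPM in high G0/G1 cells against 1.07 and 1.56 CPM in low G0/G1 cells, so the groups overlapped. As a share of all aromatase reads, CYP19A2 took 0.0631% (exact 95% interval 0.0496 to 0.0791) in high replicate 1 and 0.0679% (0.0458 to 0.0970) in high replicate 2. In the low libraries the share was 0.0738% (0.0511 to 0.103) in replicate 1 and 0.136% (0.0995 to 0.183) in replicate 2. These intervals reflect counting error alone, and the labels name no molecular identifiers, so reads may be copies of 1 molecule. In 3 libraries, then, CYP19A2 followed CYP19A3 at nearly 1 proportion. In low replicate 2 the CYP19A2 share lay above the intervals of all other libraries. Its interval there lay above those of both high libraries and overlapped that of low replicate 1. Whether its reads came from CYP19A3 transcripts was not tested. Its log2 fold change, high over low, was 0.44 ± 0.67 (SE; edgeR quasi-likelihood test, adjusted p = 0.735), with -0.32 when high replicate 1 was left out.

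Comparing high with low G0/G1 cells asks whether oestradiol-forming enzymes differ with the share of cells outside DNA synthesis and division. CYP19A3 was higher in the high G0/G1 libraries, but mainly in one of them. It stood at 3986 and 1549 CPM in high G0/G1 cells against 1444 and 1142 CPM in low G0/G1 cells. Each high library lay above each low one. High replicate 1 stood apart, at 2.76 and 3.49 times the low libraries, while high replicate 2 was 1.07 and 1.36 times as high as they were. The mean was 2768 ± 1723 CPM in high and 1293 ± 214 CPM in low (SD, n = 2 each).

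HSD17B1 (chromosome 12, 20269468 to 20271349, with no overlapping annotated gene) went the other way. It stood at 2082 and 782 CPM in high G0/G1 cells against 2827 and 2697 CPM in low G0/G1 cells. Both high libraries lay below both low ones, and here high replicate 2 was the library that stood apart, at 0.277 and 0.290 times the low libraries, against 0.737 and 0.772 times for high replicate 1. The mean was 1432 ± 919 CPM in high and 2762 ± 91.7 CPM in low (SD, n = 2 each). The low libraries differed by 0.07 on the log2 scale for HSD17B1 and by 0.34 for CYP19A3. In bulk samples, fewer cells that express a gene and less RNA of it per cell cannot be told apart.

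**Figure D1:**
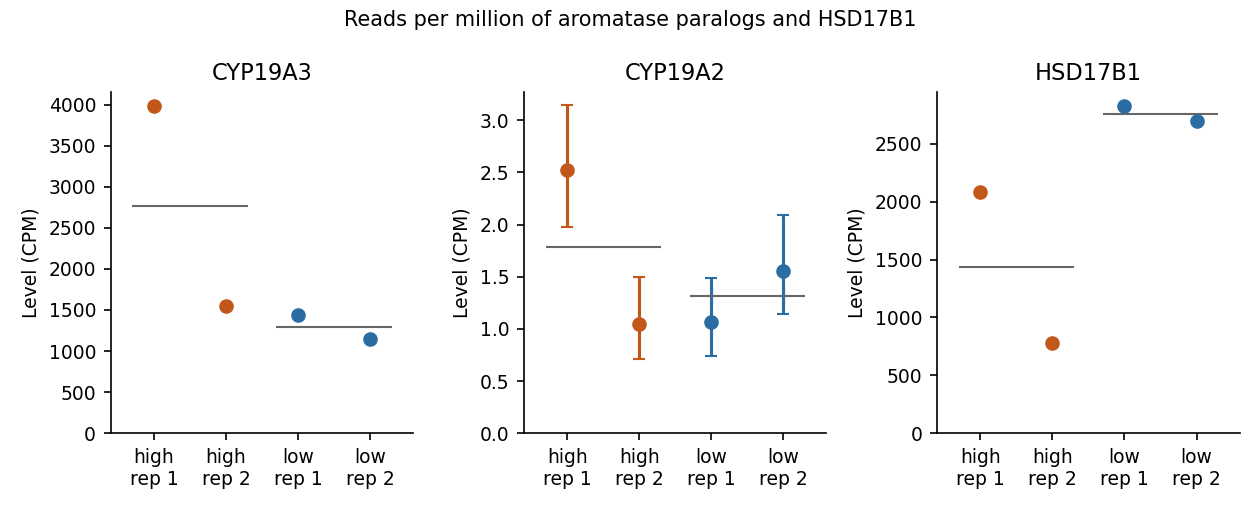
Levels of CYP19A3, CYP19A2 and HSD17B1 in CPM (linear axes from 0) in each library, with high G0/G1 libraries in orange and low G0/G1 libraries in blue. Points are libraries, vertical bars exact 95% counting intervals (smaller than the points for CYP19A3 and HSD17B1) and grey lines group means. CYP19A3 peaks at 3986 CPM in high replicate 1, and HSD17B1 is lowest at 782 CPM in high replicate 2.

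Neither difference passed the test across all genes. The log2 fold change of CYP19A3 was 1.10 ± 0.49 (SE; edgeR quasi-likelihood test, adjusted p = 0.277) and that of HSD17B1 -0.95 ± 0.49 (adjusted p = 0.327). Of the 3 members tested, 0 were called by edgeR at an adjusted p under 0.05, as were 0 of all 14352 genes (0%). At an unadjusted p under 0.05 there were 0 members and 2977 genes (20.7%). DESeq2 also called 0 members, with an adjusted p of 0.147 for CYP19A3, whose unadjusted p was 0.0272, and 0.249 for HSD17B1, while it called 5.36% of genes higher and 5.03% lower. Limma-voom called 0 members and 0% of genes. A gap between groups in a given direction was common. In 26.8% of genes each high library lay above each low one, as for CYP19A3, and in 29.8% below them, as for HSD17B1.

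Which high library was used decided the size of each change. Without high replicate 1 the log2 fold change of CYP19A3 was 0.25 ± 0.30 (SE; edgeR adjusted p = 0.631) and without high replicate 2 it was 1.63 ± 0.30 (adjusted p = 0.146). For HSD17B1 it was -1.83 ± 0.30 without high replicate 1, which edgeR called (adjusted p = 0.0437, when 3.92% of genes were called lower), and -0.41 ± 0.30 without high replicate 2 (adjusted p = 0.535). With 3 libraries the lone library of a group is assumed to vary like the others. Leaving out low replicate 2, the library with the highest sums of theca and stroma markers, gave 0.94 ± 0.64 for CYP19A3 and -0.98 ± 0.60 for HSD17B1. The directions were thus the same without that library. Low replicate 1 still had 75.5 CPM for the theca pair, nearly all INSL3, against 18.3 and 31.0 CPM in high. That fit therefore kept a difference in theca markers, and a part of other cells in these changes was not tested. Summing the paralogs into 1 gene before testing gave 1.10 ± 0.49 (adjusted p = 0.277).

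**Figure D2:**
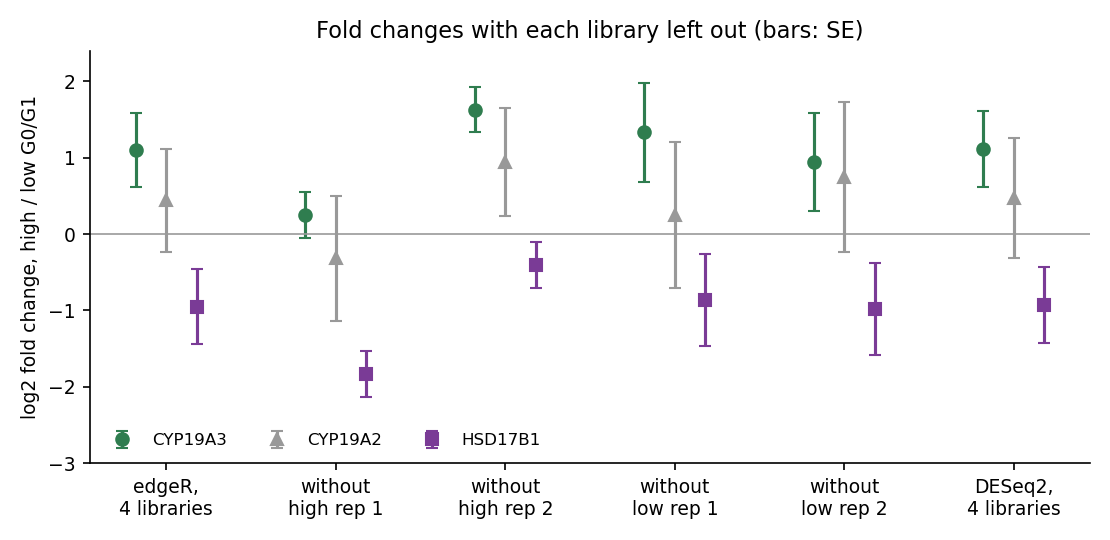
Log2 fold change, high over low G0/G1, of CYP19A3 (green circles), CYP19A2 (grey triangles) and HSD17B1 (purple squares) from edgeR with 4 libraries, with each library left out, and from DESeq2. Bars are standard errors. CYP19A3 stays above 0 and HSD17B1 below 0 in each of these fits, and both move most when a high library is left out.

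Within the high group, CYP19A3 and HSD17B1 differed between replicates by nearly the same factor. High replicate 1 had 2.57 times the CYP19A3 level of high replicate 2 and 2.66 times its HSD17B1 level. On the log2 scale the gaps were 1.36 and 1.41, against a median absolute gap of 0.42 over all genes tested. Gaps at least as wide were found in 11.7% of genes for CYP19A3 and in 10.9% for HSD17B1. CYP19A2 had a gap of 1.21.

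The ratio of HSD17B1 reads to aromatase reads therefore differed little within the high group. In the low group it was 0.97 and 1.24 on the log2 scale. It is a ratio of reads and not of enzyme activity, which was not measured here. For each aromatase read there were 0.522 and 0.504 HSD17B1 reads in high G0/G1 cells against 1.96 and 2.36 in low G0/G1 cells. The ratio needs no scaling between libraries, and transcript length cancels when libraries are compared. The groups did not overlap, and the low libraries had the higher ratio. On the log2 scale it was -0.96 ± 0.04 in high and 1.10 ± 0.19 in low (SD, n = 2 each), a difference of -2.07. An exact two-sided permutation test gave p = 0.333, which is the smallest p that 2 against 2 libraries allow. With 1 library left out the difference ran from -2.20 to -1.93, and it was -1.93 without low replicate 2.

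The same ratio was taken for each of the 14205 tested genes with a read in all libraries. For 51.3% of them the ratio to aromatase was lower in both high libraries than in both low ones, all of these ratios having aromatase as their shared denominator, and for 9.65% the difference was as large as for HSD17B1 or larger in that direction. Their median difference was -0.97, with a median pooled SD within groups of 0.73, where HSD17B1 had 0.14. The shared denominator enters both medians. On the log2 CPM scale summed aromatase itself differed by 0.95, high minus low, with an SD of 0.96 in high and 0.24 in low. How many genes had a pooled SD as small as that of HSD17B1 was not counted.

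**Figure D3:**
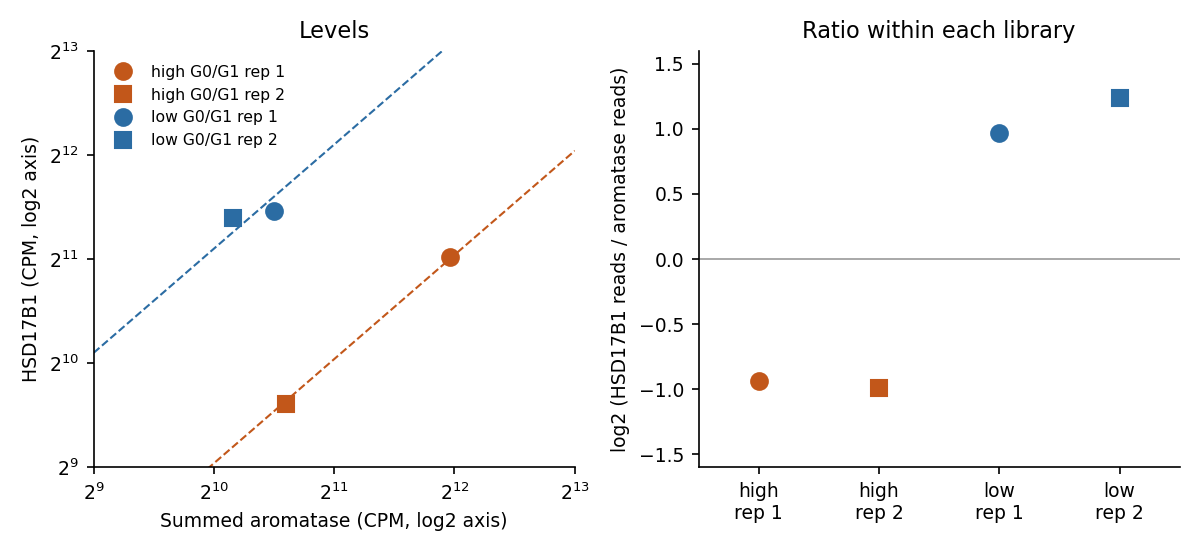
Left, HSD17B1 against summed aromatase in CPM (both axes log2), with high G0/G1 libraries in orange, low G0/G1 libraries in blue and dashed lines at each group's mean ratio. Right, the log2 ratio of HSD17B1 reads to aromatase reads in each library, at -0.94 and -0.99 in the high and at 0.97 and 1.24 in the low libraries.

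Genes whose levels followed those of the members most closely over the 4 libraries were found by the root mean square difference of centred log2 CPM, among 11817 other genes whose average log2 CPM was at least 1. Such a ranking over 4 libraries always has closest genes, and it says nothing of function. For CYP19A3 they were TRIM46 (0.06 log2 units), the nuclear receptor gene NR5A2 (0.07), the ubiquitin ligase gene HECW2 (0.10), the angiomotin family gene AMOTL2 (0.11) and SQLE (0.11), the squalene epoxidase of cholesterol synthesis. TRIM46 had few reads, 155 and 52 in high G0/G1 cells against 61 and 40 in low G0/G1 cells. In TRIM46, HECW2 and SQLE the groups overlapped, unlike in CYP19A3. NR5A2 stood at 1252 and 522 CPM in high G0/G1 cells against 509 and 399 CPM in low G0/G1 cells. It had a log2 fold change of 0.97 ± 0.46 (SE; edgeR adjusted p = 0.297), and like CYP19A3 it was highest in high replicate 1, without which its log2 fold change was 0.19.

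For HSD17B1 the closest were the kinase gene MAST3 (0.02), ZFPM1 (0.02), which encodes the GATA cofactor FOG1, ELAVL4 (0.03), LOC106508372 (0.03) and TRIM62 (0.03). The RefSeq record matched to ELAVL4 is annotated as a long noncoding RNA. ELAVL4 had 88 and 29 reads in high G0/G1 cells against 128 and 106 in low G0/G1 cells. ZFPM1 stood at 121 and 44.8 CPM in high G0/G1 cells against 158 and 156 CPM in low G0/G1 cells, again lowest in high replicate 2. CYP19A3 and HSD17B1 were far from each other by this measure, at 1.04 against a median of 0.76 for genes compared with CYP19A3 and 0.78 for genes compared with HSD17B1.

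**Figure D4:**
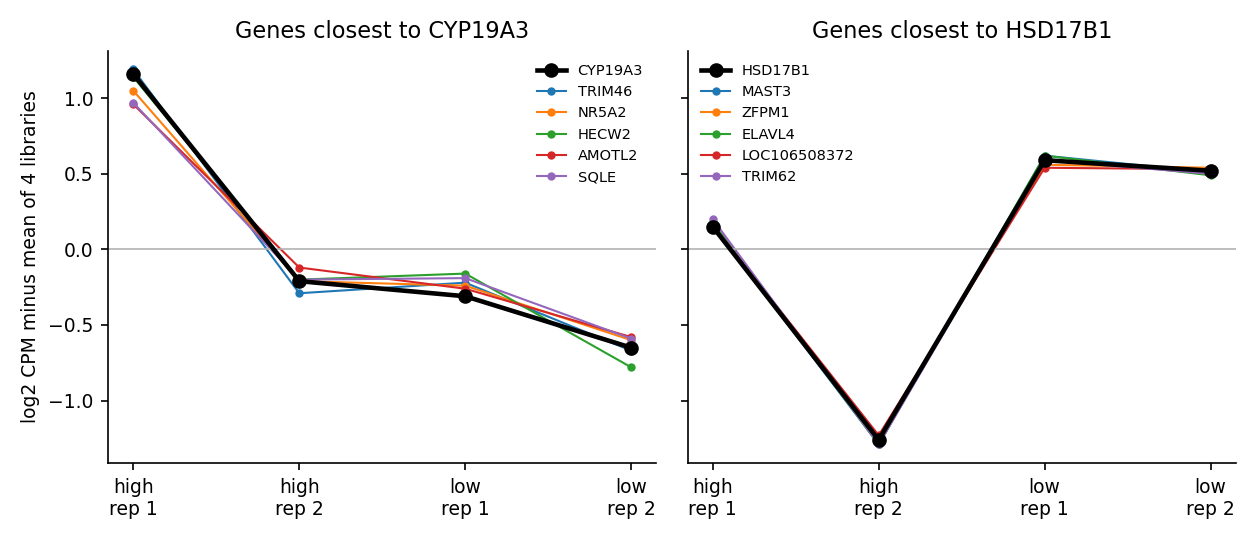
Centred log2 CPM (level minus the mean of the 4 libraries) of CYP19A3 and its 5 closest genes (left) and of HSD17B1 and its 5 closest genes (right). Lines only join the points of a gene. The CYP19A3 set is highest in high replicate 1, at 1.16 for CYP19A3, and the HSD17B1 set lowest in high replicate 2, at -1.26 for HSD17B1.

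Around the aromatase cluster, the nearest protein-coding genes on either side were also read. GLDN, which encodes gliomedin and lies 77.8 kb before CYP19A3, stood at 107 and 138 CPM in high G0/G1 cells against 21.5 and 19.9 CPM in low G0/G1 cells. Its log2 fold change was 2.57 ± 0.24 (SE; edgeR adjusted p = 0.125, DESeq2 adjusted p = 2.7e-13). TNFAIP8L3, a phosphoinositide transfer protein gene 112 kb beyond CYP19A2, stood at 226 and 441 CPM in high G0/G1 cells against 133 and 174 CPM in low G0/G1 cells (1.12 ± 0.38, edgeR adjusted p = 0.207), with a log2 fold change of 0.56 without high replicate 2 and 1.52 without high replicate 1. In both, high replicate 2 was the higher of the high libraries, the reverse of CYP19A3. DMXL2, whose product helps assemble the vacuolar proton pump, had a log2 fold change of 0.37 ± 0.28, and LOC106508998, which overlaps TNFAIP8L3 so that their reads may be split, one of 0.90 ± 0.73. These were the 4 genes next to the cluster, and 0 of 4 passed edgeR's threshold, as did 0% of all genes tested. DESeq2 called GLDN alone of the 4, against 5.36% of all genes called higher. The log2 fold change of GLDN was 2.73 without high replicate 1 and 2.37 without high replicate 2.

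The genes next to HSD17B1 did not share its direction as a block. MLX, a basic helix-loop-helix factor, had a log2 fold change of -0.33 ± 0.21 (SE), and COASY, the coenzyme A synthase gene, 0.02 ± 0.20. ATP6V0A1, a subunit of the vacuolar proton pump, stood at 40.7 and 67.6 CPM in high G0/G1 cells against 27.4 and 30.1 CPM in low G0/G1 cells (0.91 ± 0.31, edgeR adjusted p = 0.205). Without high replicate 2 its log2 fold change was 0.50 (edgeR adjusted p = 0.35), and without high replicate 1 it was 1.22 and passed (adjusted p = 0.0477, when 2.41% of all genes were called higher). CAVIN1, a coat protein of caveolae, had 0.65 ± 0.50.

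**Figure D5:**
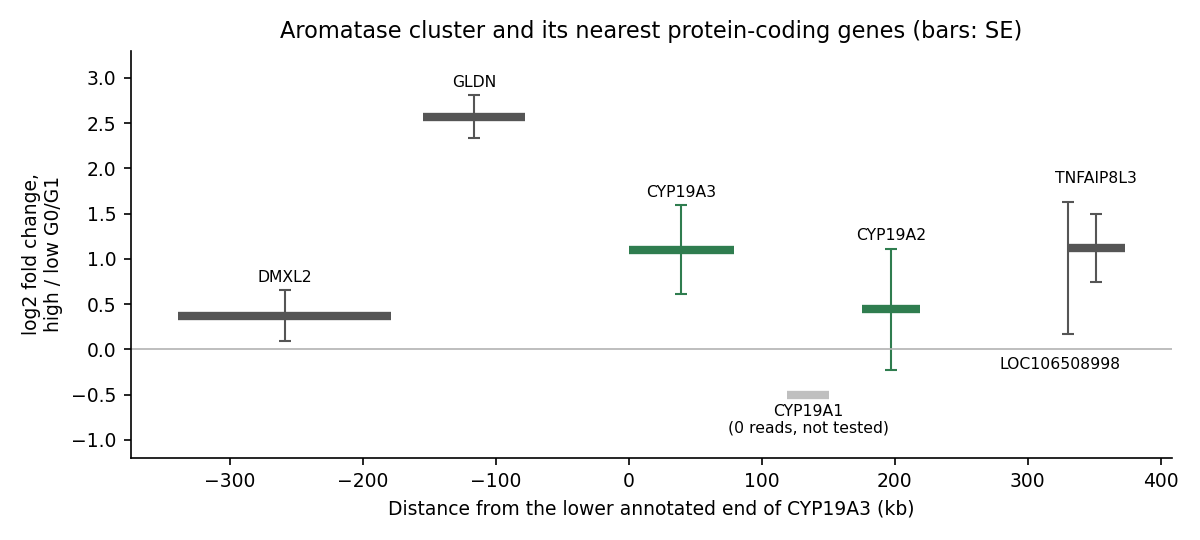
Log2 fold change, high over low G0/G1, of the aromatase paralogs (green) and their nearest protein-coding genes (grey), drawn at their annotated span in kb from the lower annotated end of CYP19A3. Vertical bars are standard errors, and CYP19A1, with 0 reads, is drawn below 0 for its place only. GLDN has the largest value shown, 2.57, against 1.10 for CYP19A3.

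Genes known to regulate aromatase transcription lay in both directions. Of 22 tested members 15 were higher and 7 lower, with a median log2 fold change of 0.33, against -0.01 over all genes tested. In 18 of the 22, both high libraries lay on the same side of both low ones, against 56.6% of all genes. They lay above in 11 of the 22, against 26.8% of all genes, and below in 7, against 29.8%. The list was chosen with earlier results of these data known, so these counts are no independent evidence. FSHR, which binds follicle-stimulating hormone, had 22.5 and 26.0 CPM in high against 81.6 and 85.9 CPM in low, so it was low in both high libraries while CYP19A3 was not. BMPR1B, a receptor of bone morphogenetic proteins, stood at 220 and 233 CPM in high and 92.4 and 74.4 CPM in low. IRS1, an adaptor of insulin and IGF receptors, stood at 260 and 182 CPM in high and 67.7 and 86.1 CPM in low, and CREB1, a transcription factor activated through cyclic AMP, at 73.3 and 80.8 CPM in high and 44.2 and 47.9 CPM in low. None of these 4 passed edgeR's threshold (adjusted p from 0.125 to 0.176). DESeq2 called 3 of the 22 higher, BMPR1B, IRS1 and LHCGR, and 1 lower, FSHR, against 5.36% of all genes higher and 5.03% lower. NR0B1, a repressor of NR5A1, had 0 counts in each library.

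Of the 22 regulators, LHCGR, PRKAR1A and NR5A2 had their 4 libraries in the same order as CYP19A3, as did 5.65% of other genes tested, and PRKACA, NR5A1 and GATA6 had them in the order of HSD17B1, as did 12.5%. NR5A1, FOXL2 and LHCGR are described here because of values already seen. NR5A1, the second nuclear receptor of aromatase transcription, stood at 170 and 85.1 CPM in high G0/G1 cells against 290 and 274 CPM in low G0/G1 cells, the order of HSD17B1 and not that of NR5A2 and CYP19A3. FOXL2, a forkhead factor of granulosa cells, had 72.8 and 29.9 CPM in high and 94.3 and 109 CPM in low, so it too was lowest in high replicate 2, but its low libraries stood in the opposite order. LHCGR, the receptor of luteinising hormone, was highest in high replicate 1 like CYP19A3, at 1001 and 277 CPM in high against 148 and 95.5 CPM in low. Their log2 fold changes were -1.14 ± 0.37 for NR5A1, -0.99 ± 0.44 for FOXL2 and 2.39 ± 0.66 for LHCGR (SE; edgeR adjusted p = 0.2, 0.278 and 0.176). These sizes too rested on which high library was used. Without high replicate 2 the log2 fold change was -0.73 for NR5A1 (edgeR adjusted p = 0.263), -0.48 for FOXL2 (0.384) and 3.04 for LHCGR (0.128). Without high replicate 1 it was -1.74 for NR5A1 (edgeR adjusted p = 0.0376), -1.77 for FOXL2 (0.0352) and 1.17 for LHCGR (0.118). In that fit edgeR called 3 of the regulators lower, NR5A1, FOXL2 and FSHR, against 3.92% of all genes, and 1 higher, BMPR1B, against 2.41%.

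In the supply of steroid precursors, 4 of 9 tested members were higher and 5 lower, with a median log2 fold change of -0.68. By edgeR 0 passed, against 0% of all genes. By DESeq2 0 passed, against 5.36% of all genes higher and 5.03% lower, so 0 calls among 9 genes say little. SCARB1, which takes up cholesterol from lipoproteins, stood at 241 and 219 CPM in high and at 645 and 256 CPM in low. FDX1, the ferredoxin that hands electrons to the side-chain cleavage enzyme, stood at 171 and 104 CPM in high and at 229 and 212 CPM in low. HSD3B1, a step to progestins and androgens, was at 1.54 and 2.00 CPM in high and at 0.314 and 27.1 CPM in low, so its high value was in low replicate 2, as for CYP17A1. Both count among the lower members only with that library. Without it their log2 fold changes were 2.50 for HSD3B1 and 2.81 for CYP17A1. POR, the electron donor of aromatase, named after its values were seen, varied within both groups, at 1478 and 343 CPM in high and 1283 and 518 CPM in low (0.02 ± 0.77, SE).

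Other HSD17B enzymes had log2 fold changes between -0.56 and 0.52, against -0.95 for HSD17B1. Among 7 tested members 3 were higher and 4 lower, with a median log2 fold change of -0.09. By edgeR 0 passed, against 0% of all genes. By DESeq2 0 passed, against 5.36% of all genes higher and 5.03% lower. HSD17B10, a mitochondrial enzyme, stood at 49.2 and 49.0 CPM in high and 67.5 and 77.2 CPM in low (-0.56 ± 0.20, SE; edgeR adjusted p = 0.216). HSD17B12, which acts in fatty acid elongation, had a log2 fold change of -0.27 ± 0.21, HSD17B8 one of 0.40 ± 0.24 and HSD17B14 one of 0.52 ± 0.20. Whether these differ from the change of HSD17B1 was not tested.

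Enzymes that convert, conjugate or release oestrogens included genes at or near 0. HSD17B2, which turns oestradiol back into oestrone, had 0 counts in each library. Of the 6 listed genes 2 could be tested, 1 higher and 1 lower, with a median log2 fold change of 0.05. The higher one had 0 reads in high replicate 1 and in low replicate 1, so this median says little. By edgeR 0 passed, against 0% of all genes, and by DESeq2 0, against 5.36% higher and 5.03% lower. STS, the steroid sulphatase, which frees oestrogens from their sulphates, was the lower one, with -0.41 ± 0.50 (SE). Among 4 sex steroid receptors 2 were higher and 2 lower, with a median log2 fold change of 0.24. The membrane oestrogen receptor GPER1 stood at 2.62 and 3.72 CPM in high and 1.44 and 1.14 CPM in low (1.29 ± 0.52, edgeR adjusted p = 0.249). ESR1, an oestrogen receptor, overlapped between groups with 168 and 139 CPM in high and 118 and 198 CPM in low, as did PGR, the progesterone receptor, at 6.68 and 16.2 CPM in high and 9.41 and 6.48 CPM in low. In this list too 0 members passed by edgeR or DESeq2, against the same shares of all genes.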

How the data were processed

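RNA was extracted with Trizol and libraries followed an Illumina protocol, per the labels' protocols. The authors deposited raw read counts by gene symbol for the 4 libraries. HISAT2 and the assembly Sscrofa11.1 are named in the submitters' processing notes. The counter, annotation, strand setting and treatment of multiply matching reads are not given in the sources. Columns were mapped by sample title, and replicate numbers follow listing order and pair nothing. All 4 members matched a RefSeq symbol of Sscrofa11.1, which gave coordinates.

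High was compared with low G0/G1 with edgeR 4.0.16 in R 4.3.3 (filterByExpr, minimum count 10 and total 15, TMM, glmQLFit, glmQLFTest), adjusted by Benjamini-Hochberg over 14352 genes and called under 0.05. Standard errors divide the size of a log2 fold change by the root of its F statistic, and log2 CPM uses a prior count of 2. Intervals are exact. Alternatives were DESeq2 1.42.0, limma-voom 3.58.1, other scalings, no filter and leaving out each library. The fits were tested on simulated data. Named genes are the members, up to 4 genes per list with the smallest p and average log2 CPM of 1 or more, list genes at 0, neighbouring genes and the 5 closest profiles. INHA, SERPINE2, PDGFRA and MYH11 were named for their levels alone, after these were seen. They do not enter the later count of named genes. For marker lists of other cell types levels and counts of calls are given, with a fold change for CYP17A1 alone, which is also a precursor enzyme. The members and the 11 gene lists were chosen with earlier results of these data known. HSD3B, HSD17B6, HSD17B11 and CYP1B1, also listed, were not analysed here. Some other listed genes are not reported here and do not enter the counts and medians of their lists.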

Additional observations from a re-analysis of the deposited data

How the results depend on the processing

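With 4 libraries edgeR called 0 of 14352 genes, while DESeq2 called 1462 (754 higher, 708 lower) and edgeR with no filter on low counts 5. With a library left out edgeR called 0 to 954, and the 954 came without high G0/G1 replicate 1. Among the 70 tested list genes DESeq2 called 8 (4 higher, 4 lower) and edgeR 0 to 6 with 1 library left out. When each library was left out in turn, the log2 fold change ran from 0.25 to 1.63 for CYP19A3, from 0.25 to 1.62 for summed aromatase, from -0.32 to 0.94 for CYP19A2 and from -1.83 to -0.41 for HSD17B1. The directions of CYP19A3, HSD17B1 and the HSD17B1 to aromatase ratio were the same in each alternative run for them. Genes that changed sign when a library was left out had small or uneven changes, with ranges of -0.29 to 1.20 for CAVIN1, -0.07 to 0.09 for COASY, -0.16 to 1.50 for LOC106508998, -0.25 to 1.02 for PGR, -0.31 to 0.39 for ESR1, -3.87 to 2.50 for HSD3B1, -5.77 to 2.81 for CYP17A1 and -1.40 to 0.86 for POR, which was -0.19 with limma-voom. HSD3B1 and CYP17A1 turned only without low replicate 2. Of 41 named genes that are no members, 30 had a log2 fold change that moved by over 1.5 times when some library was left out. The cause was not tested. CYP19A1 gave no value under any setting, and shares per coding length were not run because no transcript lengths were at hand. No paired analysis was possible because the labels give no replicate numbers that the groups share. With 2 libraries a group, the spread between libraries exceeded counting error for CYP19A3 and HSD17B1 and also, in the high group, for CYP19A2 (30 to 75 reads).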
